A study of Mus musculus with 12 samples.

Results

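The genes described here encode 7 transcription factors that hold hepatocytes in their differentiated state: the forkhead factors Foxa1, Foxa2 and Foxa3, the CCAAT/enhancer binding proteins Cebpa and Cebpb, the cut-homeodomain factor Onecut1 and the homeodomain factor Prox1. They were found by gene symbol and are 7 of the 54532 genes of the deposited count table. All 7 passed the filter on low counts, with 14686 genes tested in all. The study asked how ANGPTL8, a secreted liver and fat protein that takes part in inhibiting lipoprotein lipase, acts on lipid metabolism in the liver of chow-fed mice. Bulk liver RNA of wild-type mice was sequenced after 9 days of an adenovirus. The ANG8 group carried a virus for ANGPTL8 overexpression and the Ad_GFP group its control virus with green fluorescent protein. The shANG8 group carried a virus with a short hairpin RNA against Angptl8 and the shCtrl group its control hairpin virus. Each of the 4 groups held 3 libraries. All groups therefore carried an adenovirus, and an untreated liver was not analysed here. Neither the dose of virus nor the species of the ANGPTL8 insert, nor the age and sex of the mice, is given in the labels used here.

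FOXA proteins are pioneer factors that bind target sites in closed chromatin and keep liver enhancers open to other factors. C/EBP alpha drives genes of glucose, lipid and ammonia metabolism in mature hepatocytes, whereas C/EBP beta is induced in the acute phase response and in regenerating liver. ONECUT1, also called HNF6, acts in liver and bile duct development and on glucose and bile acid genes, and PROX1 is required for hepatoblast migration and also marks lymphatic endothelium. These factors bind each other's regulatory regions and share many targets, so they are often described as a network.

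The count table, whose coordinates are those of GRCm38, places Foxa1 (ENSMUSG00000035451) at chr12:57540628-57546916 on the minus strand, Foxa2 (ENSMUSG00000037025) at chr2:148042877-148046969 on the minus strand and Foxa3 (ENSMUSG00000040891) at chr7:19013284-19023538 on the minus strand. Cebpa (ENSMUSG00000034957) lies at chr7:35119293-35121928 and Cebpb (ENSMUSG00000056501) at chr2:167688915-167690418, both on the plus strand. Onecut1 (ENSMUSG00000043013) lies at chr9:74861921-74891781 on the plus strand and Prox1 (ENSMUSG00000010175) at chr1:190118035-190170714 on the minus strand. All 7 are protein-coding.

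The promoters of the 3 Foxa paralogs are shown because the levels of Foxa1 and Foxa2 went together across the libraries, while those of Foxa3 did not follow them. Promoters of all 7 genes were found in RefSeq on the build GRCm38.p6. Each line gives the 250 bases before the annotated start, 5′ to 3′ on the gene's strand, with matches to the searched motifs in capitals. Foxa2 had 3 annotated starts and Prox1 had 2, and the start nearest the 5′ end of the gene in the count table was used. The other starts were not searched for these genes. The windows are chr12:57546112-57546361 on the minus strand for Foxa1, chr2:148046970-148047219 on the minus strand for Foxa2 and chr7:19023540-19023789 on the minus strand for Foxa3.
Foxa1: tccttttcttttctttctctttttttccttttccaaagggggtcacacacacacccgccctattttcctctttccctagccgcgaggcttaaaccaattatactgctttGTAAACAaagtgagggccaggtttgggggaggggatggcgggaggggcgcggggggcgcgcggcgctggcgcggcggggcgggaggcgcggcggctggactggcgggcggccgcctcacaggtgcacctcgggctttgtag
Foxa2: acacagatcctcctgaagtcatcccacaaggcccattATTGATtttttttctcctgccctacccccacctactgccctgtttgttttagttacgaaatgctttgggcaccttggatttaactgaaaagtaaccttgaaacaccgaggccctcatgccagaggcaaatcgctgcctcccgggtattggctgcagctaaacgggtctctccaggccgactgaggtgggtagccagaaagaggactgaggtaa
Foxa3: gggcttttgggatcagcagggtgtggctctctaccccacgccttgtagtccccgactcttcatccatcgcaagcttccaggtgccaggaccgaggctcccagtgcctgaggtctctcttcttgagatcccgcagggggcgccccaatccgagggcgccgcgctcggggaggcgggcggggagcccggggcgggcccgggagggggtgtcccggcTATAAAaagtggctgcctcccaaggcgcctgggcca
The motifs searched on both strands were TGTTTAC for FOXA, ATTGAT for ONECUT, TTGCNNAA for C/EBP and TATAAA for the TATA box, and no match overlapped another. The Foxa1 window held 1 FOXA match, read as GTAAACA with its first base at position -141 from the start, and 3.17% of 32851 RefSeq windows of this length held this motif. The Foxa2 window held 1 ONECUT match at position -213, a motif found in 6.72% of the windows. The Foxa3 window held a TATA box match at position -36 and the Cebpa window at -30, both read as TATAAA on the gene's strand. The Prox1 match at -34 was read as TTTATA, so TATAAA lay on the opposite strand there. In either reading, 12.4% of all windows held this motif. None of the 7 windows held the C/EBP motif, which 9.56% of the windows held. The RefSeq start of Foxa1 lies 805 bases inside the gene as the count table bounds it, so its window falls within the counted span. The matches describe letters in these windows, and no binding was measured.

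Angptl8 was checked in every library first. Its level was 165, 314 and 172 CPM (counts scaled to library size with edgeR's TMM factors) in the ANG8 libraries and 96.8, 80.4 and 90.05 CPM in the Ad_GFP libraries. It was 144, 143 and 79.2 CPM in the shANG8 libraries and 340, 391 and 167 CPM in the shCtrl libraries. Within each arm the libraries did not overlap and lay in the labelled direction. Overexpression gave a log2 fold change of 1.28 (SE 0.33, edgeR adjusted p = 0.0201) and knockdown -1.29 (SE 0.33, edgeR adjusted p = 0.235), and the second value did not pass the threshold of an adjusted p under 0.05. The overexpression call was lost without any 1 of the 3 Ad_GFP libraries (adjusted p = 0.0598, 0.0786 and 0.0538 without replicates 1, 2 and 3) or without ANG8 replicate 2 (log2 fold change 0.93, adjusted p = 0.0732). It was also lost when the share of mitochondrial counts entered the fit (1.08, adjusted p = 0.0973). The knockdown value was called in 4 of 14 alternatives, which were DESeq2 (-1.30, adjusted p = 0.00936), edgeR with no filter on low counts (-1.33, adjusted p = 1.87e-07), the replicate number as a block (-1.27, adjusted p = 0.0365) and the fit without shCtrl replicate 3 (-1.59, adjusted p = 0.0335). Between the control viruses, shCtrl minus Ad_GFP, the log2 difference was 1.75 (SE 0.33, edgeR adjusted p = 0.338). It was called in the same 4 alternatives, with DESeq2 (1.75, adjusted p = 0.000283), no filter (1.76, adjusted p = 1.16e-12), the block (1.64, adjusted p = 0.0421) and without shCtrl replicate 3 (2.05, adjusted p = 0.0446). The shCtrl mean (299 ± 117 CPM, SD, n = 3) lay above the ANG8 mean (217 ± 84.0 CPM, SD, n = 3).

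Libraries held 12537083 to 15144312 counts. All 16 hepatocyte markers were measured in these livers, from albumin to the asialoglycoprotein receptors. Genes of the mitochondrial genome took 35.1% ± 11.2 (SD, n = 3) of the counts in ANG8 libraries and 27.1% ± 7.57 in Ad_GFP libraries (exact two-sided permutation test, p = 0.3), with 43.8% in ANG8 replicate 2. The share was 21.6% ± 2.0 in shANG8 libraries and 23.5% ± 0.68 in shCtrl libraries (exact two-sided permutation test, p = 0.2). The smallest p this test can give with 3 against 3 libraries is 0.1. Whether each library is from a mouse of its own is not in the labels, so every p-value here rests on the spread among libraries, which may be technical.

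None of the 7 genes was called in any comparison. Under overexpression 0 of 7 passed the edgeR quasi-likelihood test with Benjamini-Hochberg adjustment over all genes, where 13.5% of the 14686 tested genes were called. Under knockdown 0 of 7 passed, where 0.191% were called, and 0 of 7 passed in the difference between both effects, where 6.62% were called. At an unadjusted p under 0.05 there were 3 members under overexpression (Cebpa, Foxa1 and Foxa2), 1 under knockdown (Cebpb) and 2 in the difference (Cebpa and Foxa2), where 27.7%, 7.93% and 21.9% of all tested genes had such a p in these comparisons. DESeq2 and limma voom also called 0 of the 7 in each of these comparisons. The median log2 fold change of the 7 was -0.44 in ANG8 minus Ad_GFP, beside 0.00 over all tested genes, and 0.12 in shANG8 minus shCtrl, beside 0.01 over all tested genes. Of the 7, 5 had a negative fold change under overexpression and 1 under knockdown. The difference between both effects was -0.53 for Foxa1 (SE 0.26, edgeR adjusted p = 0.250), -0.41 for Cebpb (SE 0.27, edgeR adjusted p = 0.404), -0.25 for Prox1 (SE 0.26, edgeR adjusted p = 0.639), -0.01 for Foxa3 and 0.43 for Onecut1. The signs of the last pair changed with the processing. In bulk liver, fewer hepatocytes and less RNA per hepatocyte cannot be told apart.

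**Figure D1:**
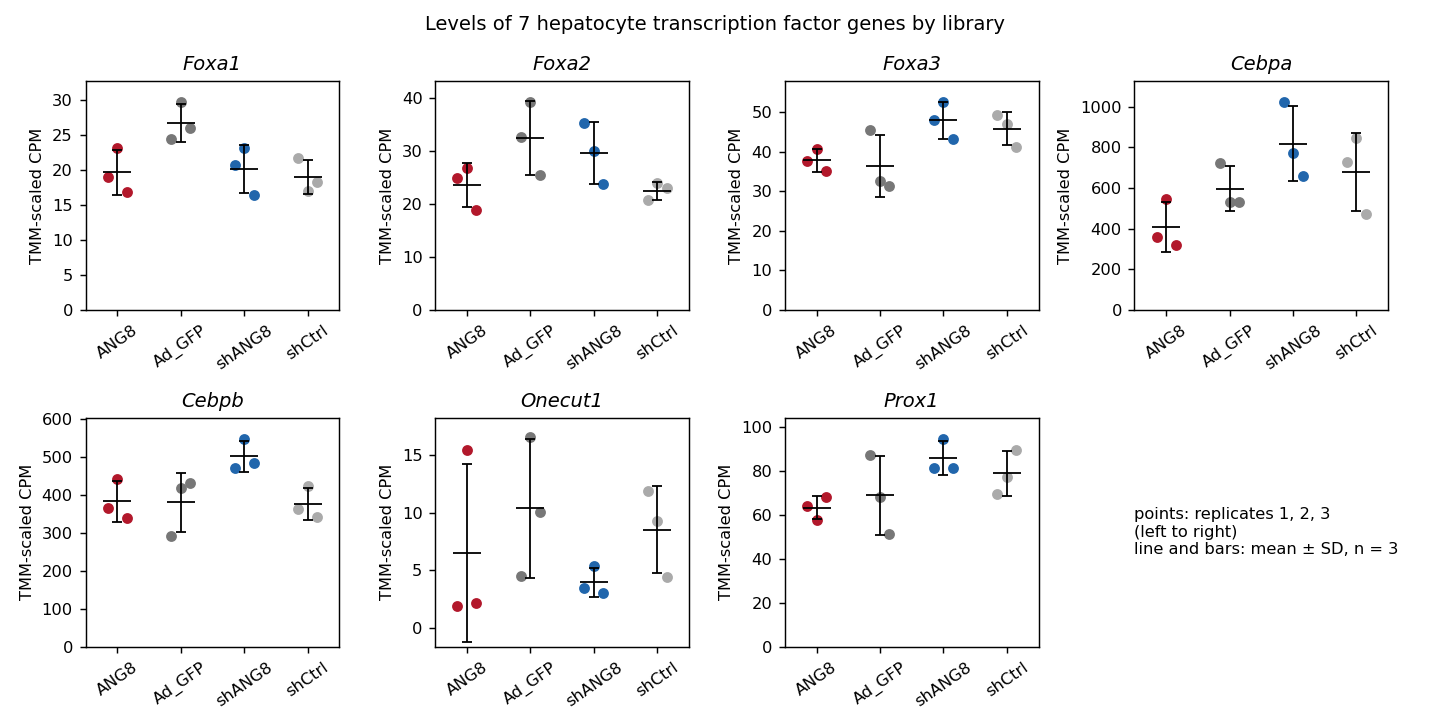
TMM-scaled CPM of each of the 7 genes in every library, with the mean and SD of each group (n = 3) as a line and bars. The shANG8 libraries of Cebpb (473 to 550 CPM) and the Ad_GFP libraries of Foxa1 (24.4 to 29.7 CPM) lie above all other libraries, and the Onecut1 points of the ANG8 group spread from 1.88 to 15.4 CPM, so that its SD bar passes below 0.

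Levels between the genes were compared per length, as TMM-scaled CPM per kilobase of gene (FPKM). Cebpb had the highest mean FPKM over the 12 libraries at 273 (range 194 to 365), followed by Cebpa at 238 (range 121 to 389), and these were the first and second of the 891 tested genes with a transcription factor family in the deposited table. Cebpb lay above Cebpa in 8 of 12 libraries, so their order was not fixed, and Cebpa came first in the shCtrl group mean. The FOXA factors followed, with Foxa3 at 20.6 FPKM in rank 40 of the 891 and Foxa2 at 11.4 FPKM in rank 89. Prox1 came next at 8.84 FPKM in rank 108, then Foxa1 at 6.42 FPKM in rank 147 and Onecut1 at 1.78 FPKM in rank 417. The ranges of neighbours overlapped except between Cebpa and Foxa3 and between Foxa1 and Onecut1, each of which kept its order in 12 of 12 libraries.

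Foxa1 opens the FOXA group, as a pioneer factor of early liver specification. It had 19.0, 23.1 and 16.9 CPM in ANG8 livers, against 24.4, 29.7 and 26.0 CPM in Ad_GFP livers. Every ANG8 library lay below every Ad_GFP library, a pattern without overlap that 34.1% of all tested genes showed in one direction or the other. The log2 fold change was -0.44 (SE 0.18, 95% interval -0.83 to -0.06, edgeR adjusted p = 0.121). In shANG8 livers it had 20.7, 23.1 and 16.5 CPM, against 21.6, 16.9 and 18.2 CPM in shCtrl livers. These groups overlapped, with a log2 fold change of 0.08 (SE 0.18, 95% interval -0.30 to 0.47, edgeR adjusted p = 0.954).

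Foxa2, the FOXA factor best known for fasting metabolism and bile acid transport, gave a similar picture. It had 25.0, 26.9 and 18.9 CPM in ANG8 livers, against 32.7, 39.3 and 25.5 CPM in Ad_GFP livers. The groups overlapped by ANG8 replicate 2, which lay above the lowest Ad_GFP library, and the log2 fold change was -0.46 (SE 0.20, 95% interval -0.88 to -0.05, edgeR adjusted p = 0.131). In shANG8 livers it had 35.4, 30.0 and 23.8 CPM, against 20.7, 24.0 and 23.0 CPM in shCtrl livers. The lowest shANG8 library lay just under the highest shCtrl library, and the log2 fold change was 0.40 (SE 0.20, 95% interval -0.02 to 0.81, edgeR adjusted p = 0.653). The overexpression effect minus the knockdown effect was -0.86 (SE 0.28, 95% interval -1.45 to -0.27, edgeR adjusted p = 0.0742), the smallest adjusted p of the 7 genes in any comparison. It was called without Ad_GFP replicate 3 (-1.01, adjusted p = 0.0450) and without shANG8 replicate 3 (-1.001, adjusted p = 0.036). With the mitochondrial share as a covariate, the overexpression effects of Foxa1 (-0.62, adjusted p = 0.0326) and Foxa2 (-0.67, adjusted p = 0.0296) were called, as was the difference for Foxa2 (-1.11, adjusted p = 0.0174).

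Foxa3, the most abundant FOXA transcript here, binds glucose-metabolism genes in adult liver. It had 37.7, 40.8 and 35.1 CPM in ANG8 livers, against 45.6, 32.6 and 31.4 CPM in Ad_GFP livers. It had 48.1, 52.6 and 43.2 CPM in shANG8 livers, against 49.3, 47.1 and 41.1 CPM in shCtrl livers. Both pairs of groups overlapped. Its log2 fold changes were 0.05 (SE 0.17, 95% interval -0.30 to 0.41, edgeR adjusted p = 0.882) under overexpression and 0.06 under knockdown (SE 0.17, 95% interval -0.29 to 0.42, edgeR adjusted p = 0.963).

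Foxa3 gave 54.2% ± 2.44 (SD, n = 3) of the summed FOXA FPKM in ANG8 livers and 45.1% ± 6.45 in Ad_GFP livers, with no overlap between the libraries. The Ad_GFP libraries (38.5% to 51.4%) also lay below all shCtrl libraries (57.1% to 61.4%). The ANG8 libraries (52.3% to 56.9%) lay below the shCtrl libraries too. The share of Foxa2 was 28.7% ± 2.13 in ANG8 livers and 34.4% ± 4.78 in Ad_GFP livers, also with no overlap. That of Foxa1 was 17.1% ± 0.91 in ANG8 livers and 20.4% ± 3.22 in Ad_GFP livers, and these libraries overlapped. In the knockdown arm Foxa2 made up 29.6% ± 3.23 in shANG8 livers and 25.3% ± 2.79 in shCtrl livers, while Foxa3 made up 56.1% ± 3.02 in shANG8 livers and 59.6% ± 2.23 in shCtrl livers. In this arm the libraries overlapped for Foxa3 but not for Foxa2. The summed FPKM of the 3 paralogs was 34.4 ± 4.05 in ANG8 livers and 39.7 ± 5.01 in Ad_GFP livers, and 42.1 ± 5.16 in shANG8 livers and 37.7 ± 2.13 in shCtrl livers. These shares were not tested.

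Cebpa, the C/EBP factor of the resting, metabolically active hepatocyte, had 358, 548 and 319 CPM in ANG8 livers, against 724, 534 and 530 CPM in Ad_GFP livers. Replicates 1 and 3 of ANG8 lay below all other libraries of the study, while ANG8 replicate 2 lay within the Ad_GFP range. The log2 fold change was -0.55 (SE 0.26, 95% interval -1.08 to -0.01, edgeR adjusted p = 0.173), and it was -0.81 without ANG8 replicate 2 (adjusted p = 0.0733). In shANG8 livers Cebpa had 1025, 771 and 661 CPM, against 730, 845 and 470 CPM in shCtrl livers. The groups overlapped, with a log2 fold change of 0.26 (SE 0.25, 95% interval -0.27 to 0.80, edgeR adjusted p = 0.859). The difference between both effects was -0.81 (SE 0.36, 95% interval -1.57 to -0.05, edgeR adjusted p = 0.194).

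Cebpb, the C/EBP factor of the acute phase response, had 367, 443 and 340 CPM in ANG8 livers, against 292, 419 and 432 CPM in Ad_GFP livers. These groups overlapped widely, with a log2 fold change of 0.01 (SE 0.19, 95% interval -0.39 to 0.41, edgeR adjusted p = 0.984). In shANG8 livers it had 473, 550 and 485 CPM, against 363, 424 and 342 CPM in shCtrl livers. All 3 shANG8 libraries lay above the 9 other libraries of the study. Of all tested genes, 12.9% had no overlap between shANG8 and shCtrl libraries. The log2 fold change was 0.42 (SE 0.19, 95% interval 0.02 to 0.81, edgeR adjusted p = 0.602), so this was not called. Cebpb shares 312 of its 1504 exonic bases with exons of Tmem189 on the opposite strand, and whether the counting used strand is not given in the sources used here, so reads there cannot be assigned with certainty. Tmem189 itself had 4.57% as many counts as Cebpb and was not called under overexpression (edgeR adjusted p = 0.668) or knockdown (edgeR adjusted p = 0.976).

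The ratio of Cebpb to Cebpa FPKM was 1.69 ± 0.24 (SD, n = 3) in ANG8 livers and 1.17 ± 0.40 in Ad_GFP livers. The libraries overlapped narrowly, since the lowest ANG8 ratio was 1.42 and the highest Ad_GFP ratio 1.43. In the knockdown arm the ratio was 1.11 ± 0.27 in shANG8 livers and 1.01 ± 0.23 in shCtrl livers. Of the other C/EBP genes, Cebpg, which pairs with the other C/EBP proteins, had log2 fold changes of -0.33 (edgeR adjusted p = 0.234) under overexpression and -0.16 under knockdown (edgeR adjusted p = 0.887). Cebpd, an acute phase C/EBP factor, had log2 fold changes of 0.38 (edgeR adjusted p = 0.633) under overexpression and 0.26 under knockdown (edgeR adjusted p = 0.936).

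**Figure D2:**
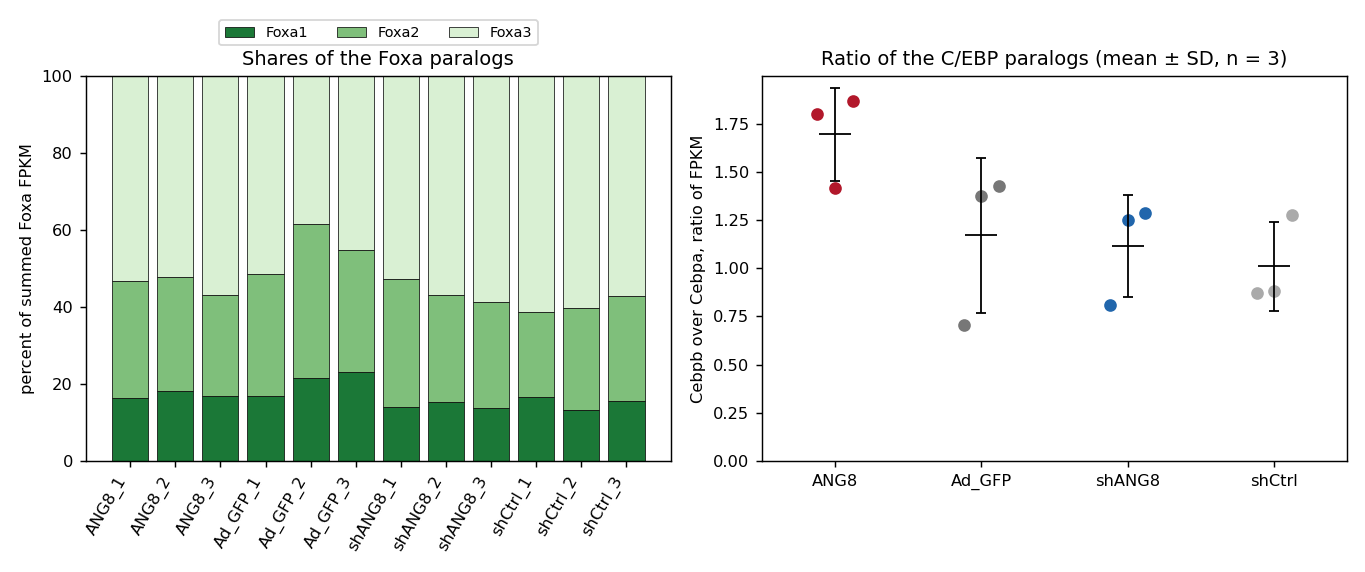
Left, the percent of the summed FOXA FPKM held by Foxa1, Foxa2 and Foxa3 in each library. Right, the ratio of Cebpb to Cebpa FPKM in each library with the group mean and SD (n = 3), which was 1.69 in ANG8 livers and 1.17 in Ad_GFP livers.

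Onecut1 was the least expressed and most variable of the 7, with 26 to 224 raw counts per library. Of its 4113 exonic bases, 2171 are shared with Gm20649, a lincRNA on the same strand listed at 0 counts in all libraries. How reads in this stretch were counted is not given in the sources used here, so the level, FPKM and rank of Onecut1 are uncertain. It had 1.88, 15.4 and 2.12 CPM in ANG8 livers, against 4.49, 16.6 and 10.02 CPM in Ad_GFP livers. Replicates 1 and 3 of ANG8 were the lowest of all 12 libraries, and ANG8 replicate 2 was the second highest. The coefficient of variation in ANG8 was 120%, where counting alone gives 15.5%. The log2 fold change was -0.70 (SE 0.79, 95% interval -2.46 to 1.07, edgeR adjusted p = 0.630). Without ANG8 replicate 2 it was -2.35 and called (edgeR adjusted p = 0.0155), and without Ad_GFP replicate 2 it was -0.19 (edgeR adjusted p = 0.929). Without Ad_GFP replicate 1 it was -1.06, without ANG8 replicate 1 -0.26 and without ANG8 replicate 3 -0.29, so single libraries decided its size.

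In the knockdown arm Onecut1 had 3.41, 5.35 and 3.02 CPM in shANG8 livers, against 11.9, 9.29 and 4.41 CPM in shCtrl livers. The groups overlapped by shCtrl replicate 3, and the log2 fold change was -1.12 (SE 0.82, 95% interval -2.95 to 0.70, edgeR adjusted p = 0.808). The interval reaches from 0.13 to 1.63 as a fold, so this depth and spread leave a wide range for the change of this gene. Its paralog Onecut2 had 38.6 ± 12.7 CPM (SD, n = 3) in ANG8 livers and 50.7 ± 7.21 CPM in Ad_GFP livers (log2 fold change -0.39, edgeR adjusted p = 0.248).

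Prox1, the homeodomain factor of hepatoblasts, hepatocytes and lymphatic vessels, had 64.2, 57.5 and 68.1 CPM in ANG8 livers, against 87.4, 68.0 and 51.4 CPM in Ad_GFP livers. All ANG8 libraries lay inside the Ad_GFP range, and the log2 fold change was -0.12 (SE 0.19, 95% interval -0.51 to 0.27, edgeR adjusted p = 0.717). In shANG8 livers it had 81.3, 94.6 and 81.2 CPM, against 69.5, 77.3 and 89.5 CPM in shCtrl livers. The groups overlapped, with a log2 fold change of 0.12 (SE 0.18, 95% interval -0.27 to 0.51, edgeR adjusted p = 0.926). Lymphatic endothelial markers, 4 of which were tested of 7 listed, summed to 19.3 to 24.7 CPM in ANG8 livers and 16.9 to 24.5 CPM in Ad_GFP livers, and to 15.97 to 23.3 CPM in shANG8 livers and 15.4 to 19.4 CPM in shCtrl livers. Of the mean sum of 22.3 CPM in ANG8 livers, Flt4 gave 9.78 CPM and Reln 8.87 CPM. Reln is also among the stellate cell markers used below, so the sum is not particular to lymphatic cells. The only lymphatic marker at 0 in all libraries was 1 of 2 identifiers of Ccl21a, and the part of lymphatic cells in the Prox1 level was not tested. Prox1os, an antisense gene that shares 133 exonic bases with Prox1, had 8.31% as many counts as Prox1 and was not called in either arm.

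**Figure D3:**
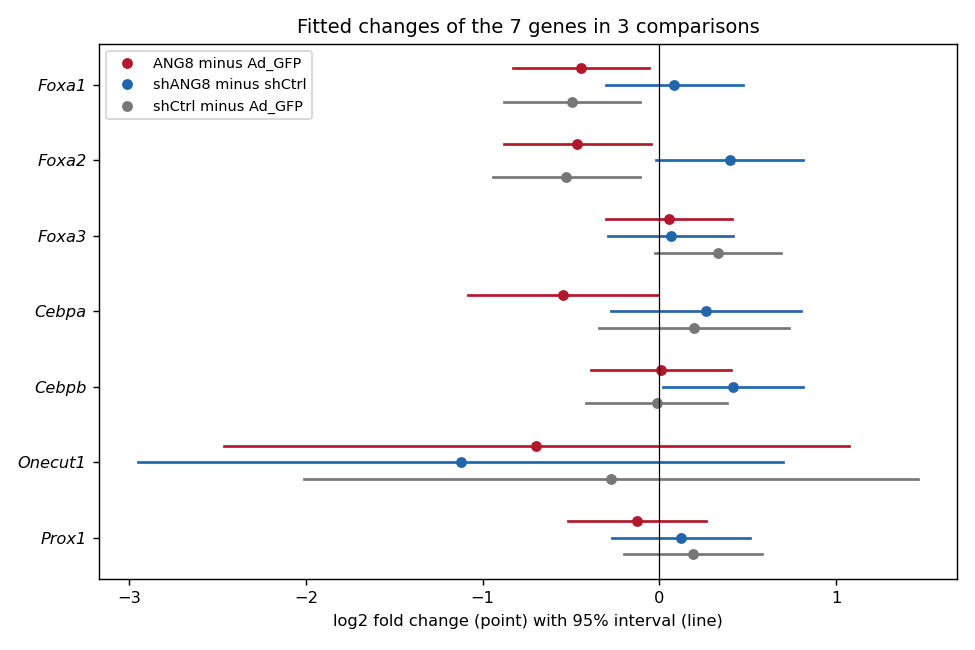
Log2 fold change (point) and 95% interval (line) of the 7 genes in ANG8 minus Ad_GFP, shANG8 minus shCtrl and shCtrl minus Ad_GFP. The intervals of Foxa1 lie below 0 for ANG8 minus Ad_GFP (-0.83 to -0.06) and for shCtrl minus Ad_GFP (-0.88 to -0.11), and the intervals of Onecut1 are the widest.

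The control viruses were compared with each other because the Ad_GFP libraries enter both this comparison and the overexpression comparison. In shCtrl minus Ad_GFP 0 of 7 genes were called, where 0.0% of all tested genes were called and 1286 had an unadjusted p under 0.05. DESeq2 called 46 genes and limma voom called 0. Foxa2 had 20.7, 24.0 and 23.0 CPM in shCtrl livers, all below the lowest Ad_GFP library at 25.5 CPM, with a log2 fold change of -0.53 (SE 0.20, 95% interval -0.94 to -0.11, edgeR adjusted p = 0.455). Foxa1 was also lower in every shCtrl library than in every Ad_GFP library, with a log2 fold change of -0.49 (SE 0.18, 95% interval -0.88 to -0.11, edgeR adjusted p = 0.454). Of all tested genes, 16.1% had no overlap between these groups. For Foxa1 every Ad_GFP library therefore lay above every ANG8 and shCtrl library. For Foxa2 this held against shCtrl only, since ANG8 replicate 2 lay above the lowest Ad_GFP library. For both genes the shCtrl minus Ad_GFP values were as large as those of ANG8 minus Ad_GFP. The other 5 genes had values of -0.27 to 0.33 between the control viruses.

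Across the 12 libraries the members did not vary as one group. Of the 21 pairs, the highest Pearson correlations of log2 CPM were 0.72 for Cebpa with Foxa3, 0.70 for Foxa3 with Prox1, 0.68 for Foxa1 with Foxa2 and 0.63 for Foxa1 with Onecut1. The lowest was -0.36 for Onecut1 with Prox1, and Foxa1 with Foxa3 had -0.27. These values describe 12 libraries that share group structure and scaling. Single libraries carried part of this pattern. ANG8 replicate 2 was the highest of its group for 6 of the 7 genes and the lowest for Prox1, and ANG8 replicate 3 was the lowest for 5. Of the shANG8 libraries, replicate 3 was the lowest for 6 of the 7 genes. ANG8 replicate 2 also had the highest mitochondrial share of its group at 43.8%, and ANG8 replicate 3 the lowest at 22.5%, and the part of this share in the member levels was not tested beyond its use as a covariate.

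Genes whose log2 levels were most like each member were taken from 9308 genes with a mean of at least 5 CPM, by Pearson correlation over the 12 libraries. Cebpa was most like Hes6, a helix-loop-helix repressor (r = 0.96), followed by Sec14l2 and Arfgef1. Hes6 fell under overexpression (log2 fold change -1.17, SE 0.28, edgeR adjusted p = 0.0116), a call lost without Ad_GFP replicate 1 (adjusted p = 0.0528) or ANG8 replicate 1 (adjusted p = 0.0590). Cebpb was most like Bzw2 (r = 0.88), Iqsec2 and Ercc2, and Foxa1 was most like Slc35b3 (r = 0.91), Mief2 and Nek8. Among the genes nearest to Foxa2 were Aven (r = 0.90) and Lrrc29, and those nearest to Foxa3 were Med28, a mediator subunit (r = 0.97), Tbcel and Prpf18. Onecut1 was most like Ppp1r9a (r = 0.92), Serpina4-ps1 and B4galt1, and Prox1 was most like Sdf4 (r = 0.90), Zfp385b and Prkra. The highest of 9308 correlations is high by selection, and no test was made.

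The partner transcription factors of the network and the genes these factors act on were then counted. The lists were drawn up with earlier results of these data known, so the counts are a description. Over all tested genes, 7.08% were called higher and 6.39% lower under overexpression. Of 25 partner factors tested, 4 fell under overexpression and none rose, with a median log2 fold change of -0.39 beside 0.00 over all genes. They were Klf15, a glucocorticoid-responsive factor of gluconeogenesis, Dbp, a clock-controlled factor, Xbp1, a factor of the unfolded protein response, and Creb3l3, a fasting-induced membrane-bound factor. Klf15 had 75.4 ± 6.40 CPM (SD, n = 3) in ANG8 livers and 144 ± 5.58 CPM in Ad_GFP livers (log2 fold change -0.93, SE 0.20, edgeR adjusted p = 0.00621). Dbp had 64.4 ± 7.94 CPM in ANG8 livers and 121 ± 32.9 CPM in Ad_GFP livers (-0.92, SE 0.20, edgeR adjusted p = 0.00662). Xbp1 (-0.86, edgeR adjusted p = 0.0101) and Creb3l3 (-0.58, edgeR adjusted p = 0.0233) were also lower. Under knockdown 0 of 25 partner factors were called. Of the 891 transcription factor genes tested, 72 were called under overexpression, which is 8.08%, 47 of them higher and 25 lower, and 0 under knockdown. Of 18 forkhead genes tested, Foxm1 alone was called, a cell cycle factor named here after its values were seen, with 13.3 ± 2.05 CPM in ANG8 livers and 4.68 ± 1.84 CPM in Ad_GFP livers (log2 fold change 1.51, SE 0.30, edgeR adjusted p = 0.00309).

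Many genes that FOXA, C/EBP or ONECUT factors are known to act on fell under overexpression although no member was called. Of 28 listed target genes 26 were tested, 19 fell and none rose, with a median log2 fold change of -1.09. Slc10a1, the bile acid uptake transporter NTCP, had 34.0 ± 5.39 CPM (SD, n = 3) in ANG8 livers and 150 ± 28.3 CPM in Ad_GFP livers (log2 fold change -2.14, SE 0.22, edgeR adjusted p = 4.39e-05). Pklr, the liver pyruvate kinase, had 27.1 ± 6.76 CPM in ANG8 livers and 143 ± 64.6 CPM in Ad_GFP livers (-2.40, SE 0.27, edgeR adjusted p = 7.61e-05). Gys2, the liver glycogen synthase, fell by 1.33 on the log2 scale (edgeR adjusted p = 0.000482), as did Serpina1c, an alpha-1 antitrypsin gene with near-identical copies whose counts are uncertain, by 1.38 (edgeR adjusted p = 0.000398). Under knockdown 0 of the 26 were called, with a median of 0.05. The difference between both effects was called for 10 of the 26.

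The C/EBP acute phase list gave a mixed picture. Of 20 genes tested, 5 fell and 1 rose under overexpression, with a median log2 fold change of -0.54, and 0 were called under knockdown. Saa4, a constitutive serum amyloid A, had 291 ± 14.7 CPM (SD, n = 3) in ANG8 livers and 629 ± 20.03 CPM in Ad_GFP livers (log2 fold change -1.11, SE 0.18, edgeR adjusted p = 0.000803). Both inter-alpha-trypsin inhibitor chains listed, Itih3 (-0.76, edgeR adjusted p = 0.0254) and Itih4 (-0.74, edgeR adjusted p = 0.0201), fell. Il1rn, the interleukin 1 receptor antagonist, rose by 1.12 (SE 0.29, edgeR adjusted p = 0.0183), with 12.54 ± 1.40 CPM in ANG8 livers and 5.75 ± 0.54 CPM in Ad_GFP livers.

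Hepatocyte markers moved with the target list, with which they share 8 of their 16 genes, albumin included. Under overexpression 11 of 16 fell and none rose, with a median log2 fold change of -0.96, and under knockdown 0 of 16 were called. Hpd, an enzyme of tyrosine breakdown, had 375 ± 31.9 CPM (SD, n = 3) in ANG8 livers and 1201 ± 151 CPM in Ad_GFP livers (log2 fold change -1.68, SE 0.20, edgeR adjusted p = 9.23e-05). Uox, the urate oxidase, was lower by a log2 fold change of -1.43 (edgeR adjusted p = 0.000487) and Fah, the last enzyme of tyrosine breakdown, by -0.91 (edgeR adjusted p = 0.00236). The summed hepatocyte markers ran from 26364 to 53950 CPM in ANG8 livers and from 47884 to 70743 CPM in Ad_GFP livers (exact two-sided permutation test, p = 0.2). Albumin alone gave 22440 of the mean 36191 CPM in ANG8 livers and 33210 of 60533 CPM in Ad_GFP livers. It was not called (log2 fold change -0.57, edgeR adjusted p = 0.291), so the sum largely follows albumin and says little about the other markers.

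These counts depend on single libraries. The target count was 12 without Ad_GFP replicate 1 or without ANG8 replicate 1, the hepatocyte count was 7 without replicate 1 or 3 of Ad_GFP or replicate 1 or 2 of ANG8, and the partner count was 2 without ANG8 replicate 1. The acute phase count was 2 without Ad_GFP replicate 1 or ANG8 replicate 2, 1 without ANG8 replicate 1 and 9 without ANG8 replicate 3.

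Markers of other liver cells moved in the overexpression comparison as well. Of 16 macrophage markers 10 rose under overexpression, and their sum ran from 1028 to 1287 CPM in ANG8 livers and from 429 to 600 CPM in Ad_GFP livers (exact two-sided permutation test, p = 0.1, the smallest possible). Of 12 T and NK cell markers 8 rose and 1 fell, with sums of 155 to 178 CPM in ANG8 livers and 61.2 to 87.4 CPM in Ad_GFP livers. Of 14 cell cycle genes 10 rose, with sums of 258 to 398 CPM in ANG8 livers and 113 to 144 CPM in Ad_GFP livers. Of 7 tested cholangiocyte markers 0 were called, and the sum over all 10 listed was 85.7 to 147 CPM in ANG8 livers and 42.7 to 98.8 CPM in Ad_GFP livers, with Cftr at 7 counts over all libraries. Markers of blood endothelium (10 tested), lymphatic endothelium (4 tested), neutrophils (4 tested) and stellate cells (9 tested) had 0 calls under overexpression. Under knockdown 0 markers of any of these cell types were called, but 3 of the sums did not overlap between the groups. T and NK cell markers summed to 48.7 to 69.1 CPM in shANG8 livers and 81.6 to 103 CPM in shCtrl livers. Neutrophil markers summed to 9.91 to 14.3 CPM in shANG8 livers and 22.6 to 24.5 CPM in shCtrl livers, and cholangiocyte markers to 43.0 to 61.7 CPM in shANG8 livers and 62.2 to 92.6 CPM in shCtrl livers. Each gave p = 0.1 in the exact two-sided permutation test, the smallest possible. In the cholangiocyte sum, Spp1 alone gave 26.1 of the mean 51.1 CPM in shANG8 livers and 50.8 of 76.1 CPM in shCtrl livers. It gave 83.0 of 106.9 CPM in ANG8 livers and 42.5 of 67.5 CPM in Ad_GFP livers. The cholangiocyte sums thus rest largely on 1 gene, which was not called under overexpression (edgeR adjusted p = 0.222) or knockdown (edgeR adjusted p = 0.675). The part of these cells in the levels of Cebpb, which macrophages also express, and of Foxa1, Foxa2 and Onecut1, which bile duct cells also express, was not tested.

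**Figure D4:**
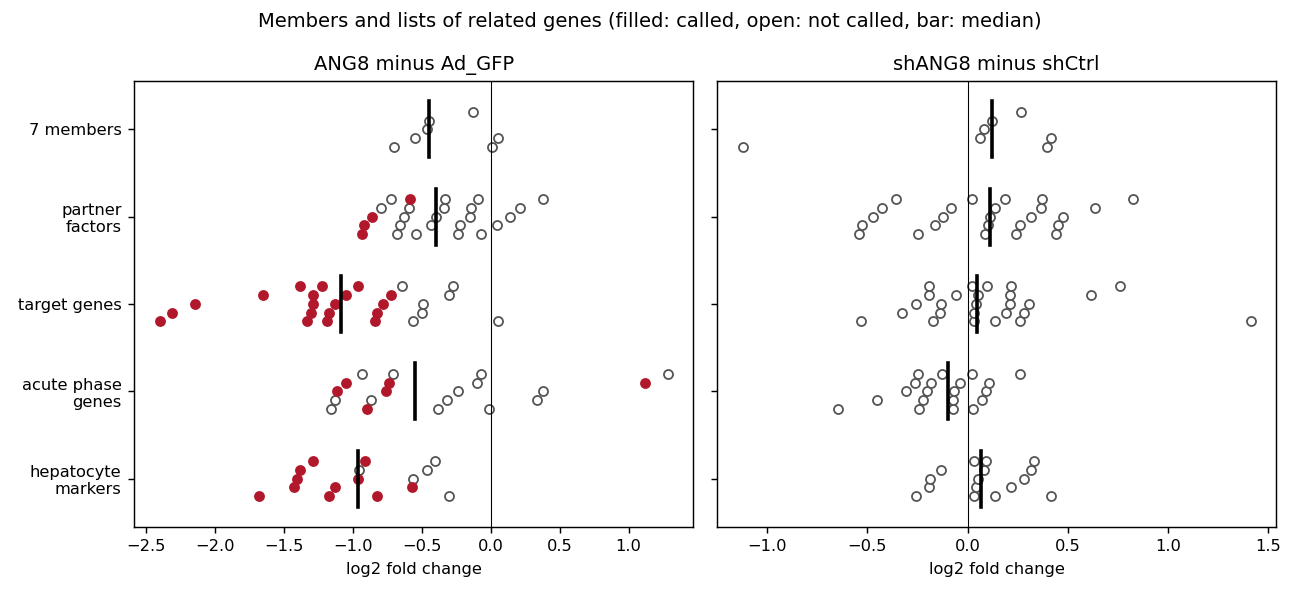
Log2 fold change of each tested gene of the 7 members, the partner factors, the target genes, the acute phase genes and the hepatocyte markers, with called genes filled and the median of each list as a bar. In ANG8 minus Ad_GFP (left) the medians of the target genes (-1.09) and hepatocyte markers (-0.96) lie below that of the 7 members (-0.44), and in shANG8 minus shCtrl (right) no gene of these lists was called.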

How the data were processed

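Liver RNA of 12 libraries in 4 groups was measured by RNA sequencing. The authors deposited 1 table of unnormalized whole-number counts. Per the submitters' processing notes, they used featureCounts 1.5.0-p3 and CASAVA 1.8.2, with mm9 as the build. Neither the aligner nor the annotation nor the strand setting is stated in the sources used here. Of the table's gene identifiers, 54409 are in GENCODE vM21 on GRCm38 and 98.3% of these have identical coordinates, the 7 members included.

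From the deposited counts, genes were filtered with filterByExpr by group, scaled by TMM and fitted with the robust quasi-likelihood model of edgeR 4.0.16 in R 4.3.3, over all 12 libraries. P-values were adjusted by the Benjamini-Hochberg method over all 14686 tested genes, with calls at 0.05. Compared were ANG8 minus Ad_GFP, shANG8 minus shCtrl, their difference and shCtrl minus Ad_GFP. The SE is the size of the fold change divided by the square root of F. CPM and FPKM are TMM-scaled, with FPKM per kilobase of the table's gene length. Correlations used log2 CPM with a prior count of 2. The members had 26 to 13519 counts per library. The chi-square per gene between libraries of 1 group was at least 14.5, so no pair was a repeat of 1 library.

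The members and lists were chosen with earlier results of these data known. Named genes were the 7 members, Angptl8, called partner factors, up to 4 called genes with the smallest p of each other list under overexpression and up to 2 under knockdown, the 3 genes most like each member, and genes that overlap a member. Scripts were tested on simulated data. Alternatives were DESeq2 1.42.0, limma 3.58.1 (voom), DESeq2-type size factors, no filter, fits of the compared groups alone, the replicate number as a block, removal of mitochondrial genes, the mitochondrial share as a covariate, and each library left out. Some genes covered by this rule or by the lists enter the counts but are not reported by name.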

Additional observations from a re-analysis of the deposited data

Results flagged for a closer look

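The overexpression effect (ANG8 minus Ad_GFP) differed from the knockdown effect (shANG8 minus shCtrl) for 972 of the 14686 tested genes (6.62%), by the interaction term of the edgeR fit. Of the genes named above, 14 were among these. None of the 7 hepatocyte factors was, the nearest being Foxa2 with an adjusted p of 0.0742. For Angptl8 itself the difference was 2.58 on the log2 scale (SE 0.46, edgeR adjusted p = 0.00700), which is the direction the labels give. Among the target genes the difference was -3.02 for Pklr (edgeR adjusted p = 0.000878), -2.24 for Slc10a1 (edgeR adjusted p = 0.00106), -1.63 for Gys2 (edgeR adjusted p = 0.00292) and -1.12 for Serpina1c (edgeR adjusted p = 0.0222). Among the hepatocyte markers it was -2.10 for Hpd (edgeR adjusted p = 0.00106), -1.71 for Uox (edgeR adjusted p = 0.00327) and -0.998 for Fah (edgeR adjusted p = 0.0199). Among the partner factors it was -1.39 for Dbp (edgeR adjusted p = 0.00888) and -1.04 for Klf15 (edgeR adjusted p = 0.0364), and in the acute phase list it was -0.85 for Saa4 (edgeR adjusted p = 0.0467). It was 1.63 for Foxm1 (edgeR adjusted p = 0.0319), and, among the genes most like a member, -1.47 for Hes6 (edgeR adjusted p = 0.0337) and -1.13 for Nek8 (edgeR adjusted p = 0.0481). Over 19 alternatives each, the call of the difference was lost in 4 for Fah, 5 for Serpina1c, 8 for Klf15, 9 for Hes6, 10 for Foxm1 and 13 each for Saa4 and Nek8, mostly without single libraries, with adjusted p-values up to 0.121. The other 7 genes kept it in all 19. The knockdown effect alone was not called for any of the 14 in the edgeR fit over all libraries, and that of Angptl8 was called in the 4 alternatives given in the report.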

How the results depend on the processing

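The 28 fold changes of the 7 genes were recomputed under 14 to 19 alternatives each. In 15 of them direction and call were kept under every alternative run. Calls appeared for Foxa1, Foxa2 and Onecut1, as given in the report, so that members called under overexpression numbered 2 with the mitochondrial share as a covariate and 0 to 1 without single libraries. In the difference 1 member was called with the covariate, 1 with the replicate block (Foxa2, -0.84, edgeR adjusted p = 0.0259) and 0 to 1 without single libraries. Pairing by replicate number was checked on the deviations of log2 CPM from the group mean of each gene. These deviations correlated at -0.07 to 0.19 between same-numbered libraries of the compared groups. In no comparison was every pair above 0.1, so the numbers were not taken to pair the samples. By the same deviations, 4 of 6 libraries in each comparison correlated best with their own number, which leaves some pairing possible. With the replicate block the genes called were 55 under knockdown, 1550 in the difference and 5 between the controls. Under knockdown the genes called were 102 with DESeq2, 132 with no filter and 47 with the covariate. In the difference they were 1541 with DESeq2 and 1510 with no filter, and between the controls 46 with DESeq2 and 96 with no filter. Without single libraries they ranged from 995 to 1684 under overexpression, from 473 to 1227 in the difference and from 0 to 10 between the controls. List counts called lower under overexpression were 8 (DESeq2), 9 (no filter) and 2 (covariate) for the acute phase list and 7 (no filter) for the partner factors. Without single libraries they ranged from 12 to 17 for targets, 7 to 13 for hepatocyte markers, 1 to 9 for the acute phase list and 2 to 5 for partners. Values near 0 changed sign. The difference of Foxa3 was 0.0051 (voom), 0.019 (no filter), 0.0037 (no mitochondrial genes) and 0.012 (covariate), and that of Onecut1 -0.19 (voom) and -0.97 (covariate). With the covariate Cebpb was -0.15 under overexpression and 0.065 between the controls, and Onecut1 0.32 between the controls, where Cebpb was 0.0050 with no filter. Without single libraries the overexpression values ranged from -0.15 to 0.11 for Cebpb, -0.049 to 0.24 for Foxa3 and -0.30 to 0.082 for Prox1, the knockdown values from -0.032 to 0.21 for Foxa1 and -0.014 to 0.13 for Foxa3, the differences from -0.11 to 0.18 for Foxa3 and -1.22 to 0.94 for Onecut1, and the control values from -0.17 to 0.087 for Cebpb and -0.63 to 0.25 for Onecut1. The cause was not tested. The coefficient of variation within groups was 7.45% to 120%, where counting alone gives 0.97% to 15.5%, and the ends of these ranges are not all from the same gene and group. It lay above the counting value for every member in every group, but not evenly. Cebpa in shANG8 livers had 22.8% where counting alone gives 0.97%. Foxa2 in shCtrl livers had 7.45% against 5.61% from counting, and Foxa3 in ANG8 livers 7.61% against 4.34%. Without single libraries Xbp1, Creb3l3, Itih3, Itih4 and Il1rn lost the overexpression call in 2 to 4 of 6 fits.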
